A study of Mus musculus with 4 samples.

Results

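The voltage-gated sodium, calcium and HCN channel genes form 8 role groups in this account, and 31 of them were measured in mouse hippocampus among 19938 genes in all. They were chosen by name alone, as the genes whose symbols begin with Cacna, or are Cacnb, Scn or Hcn symbols of channel subunits. Each gene was represented by the transcript cluster (the unit of the array, a set of probes summarised to 1 value) that had the highest mean over the arrays. The annotation paired 46 transcript clusters with a single one of these symbols. Channel genes without such a transcript cluster were not analysed here. The 31 measured genes were 8 pore-forming and 3 auxiliary sodium channel genes, 10 pore-forming and 7 auxiliary calcium channel genes, and 3 HCN genes.

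All 4 samples were hippocampi of male C57BL/6JJmsSlc mice aged 11 to 12 weeks, 1 array per sample. The 2 mice of the R-SDS group had undergone repeated social defeat stress, that is, daily bouts of 10 min over 10 days in the cage of a male ICR mouse, and otherwise lived behind a divider. The 2 Control mice were kept in pairs in divided cages, with the partner changed daily and without defeat. Per the study, a week of social isolation came before the defeats. The hippocampus was collected some days after the last defeat, following a social interaction test and a sucrose preference test. The study describes its R-SDS array mice as susceptible, meaning that they avoided an unfamiliar ICR mouse, but the sample labels give the stress alone. The labels name no transgene, and the tissue was whole dissected hippocampus, so that fewer cells of a type and less RNA per cell cannot be told apart.

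Voltage-gated sodium channels open when the membrane depolarises and carry the upstroke of the action potential. Voltage-gated calcium channels turn the same depolarisation into calcium entry, which drives transmitter release at presynaptic terminals and gene regulation and burst firing elsewhere in the neuron. HCN channels open on hyperpolarisation, are tuned by cyclic AMP, and carry the h current that sets resting potential and rhythm. In hippocampal pyramidal and granule neurons these channels lie in distinct compartments, such as the axon initial segment, the terminals and the distal dendrites.

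No channel gene was called different between R-SDS and Control mice. All 31 had a limma adjusted p of 1 over the 21789 transcript clusters with 1 gene symbol. By limma, 0 of 31 had an adjusted p under 0.05 (0.0% of all transcript clusters), 0 had an unadjusted p under 0.05 (1.01% of all, and with the replicate number as a block 0 of 31 and 4.81% of all), and 0 passed the criteria the study used for changed genes, a log2 difference of over 0.5 with an unadjusted p under 0.05 (0.34% of all). The differences (R-SDS minus Control, on the log2 scale) ran from -0.26 for Cacna2d2 to 0.14 for Cacnb2, so that the largest corresponded to 1.2-fold. With the replicate number as a block, the standard errors of the 31 genes were 0.09 to 0.21. In the main fit, which leaves the number out, they were 0.13 to 0.35. In that main fit the difference was smaller than its standard error for 27 of the 31 genes. The 95% intervals of 21 genes in the main fit lay wholly within 0.5 of no difference (61.0% of all transcript clusters did). Those of the other 10 reached beyond it. These 10 were Scn1a, Scn9a, Scn11a, Scn4b, Cacna1d, Cacna1e, Cacna2d1, Cacna2d2, Cacnb1 and Cacnb2.

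**Figure D1:**
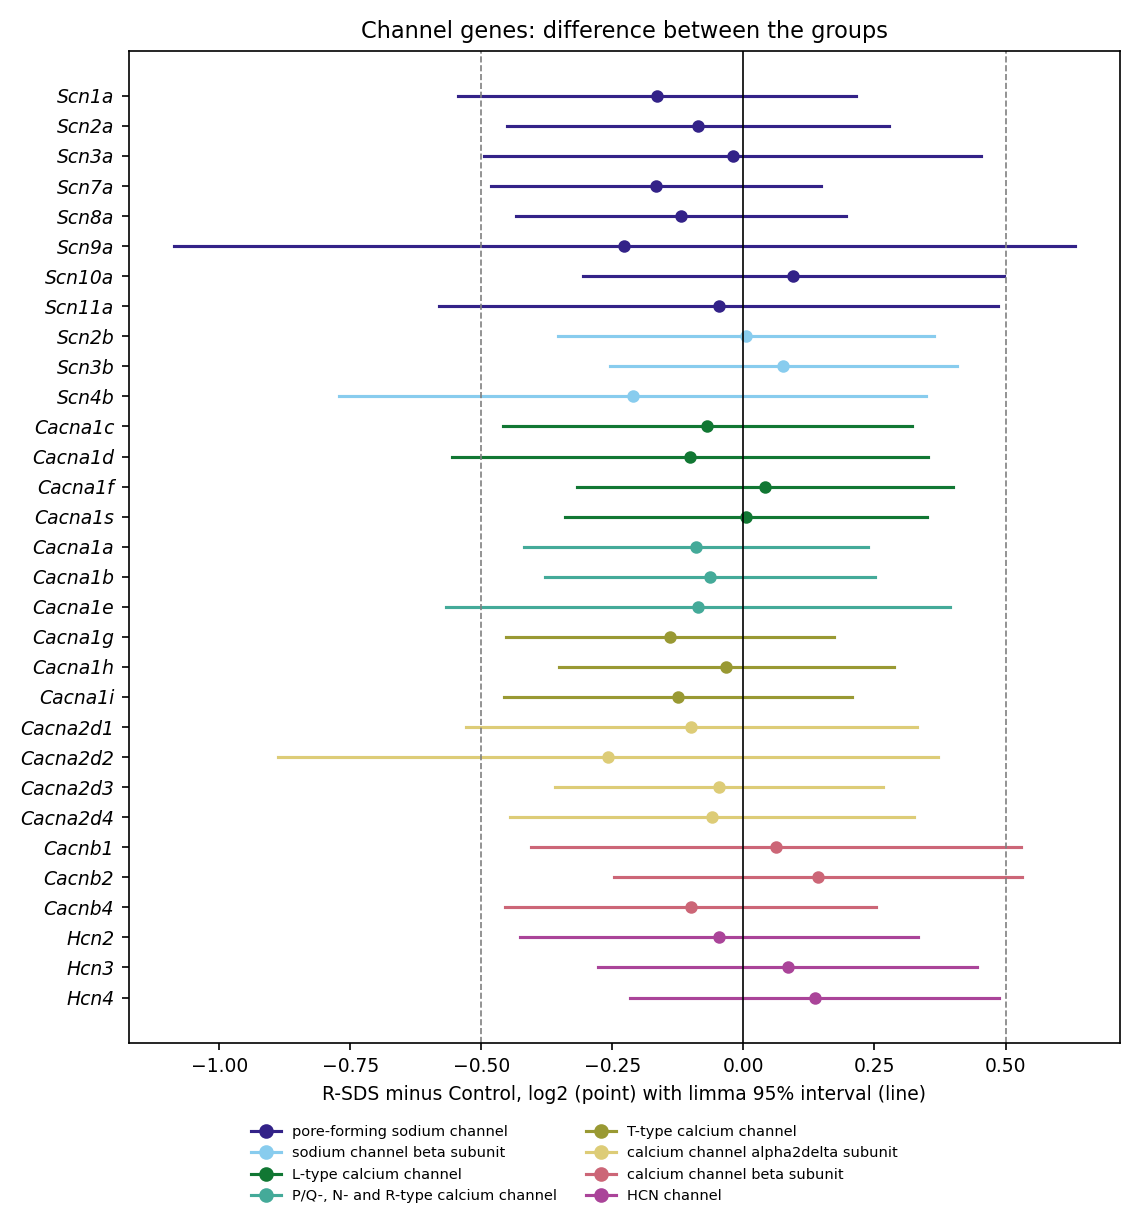
Difference between R-SDS and Control (horizontal axis, log2) of the 31 channel genes (rows, coloured by role), with limma's 95% interval as a line and dashed lines at a log2 difference of 0.5 in either direction. All 31 intervals span 0, and 10 of them reach past a dashed line.

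The differences were small and leaned to lower values in R-SDS mice. Of the 31 genes, 22 had a lower and 9 a higher mean, or 71.0% lower, where 47.1% of all transcript clusters were lower. Their median difference was -0.06, against 0.01 for all transcript clusters. The groups did not overlap for 5 channel genes, all lower in both R-SDS mice (16.1%). Over all transcript clusters the groups did not overlap for 18.5%, 9.06% lower and 9.41% higher, and over the brightest transcript cluster of each gene for 8.81% lower and 9.52% higher. The share of channel genes without overlap in either direction was thus near that of all transcript clusters. The median was -0.01 without R-SDS 1, -0.03 without Control 2, -0.10 without Control 1 and -0.11 without R-SDS 2. The median was -0.09 within replicate number 1 (R-SDS 1 minus Control 1, 20 of 31 lower) and -0.03 within number 2 (18 of 31 lower). Of the 23 channel genes with a mean log2 value of at least 6, 19 were lower (median -0.09), where 45.2% of all such transcript clusters were, and of the 8 dimmer ones 3 were lower (median 0.02). Within both numbers, 11 genes (35.5%) were lower and 4 (12.9%) higher, where 22.7% and 27.3% of all transcript clusters were.

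The 5 genes without overlap were Cacna1b, Cacna1g, Cacna1i, Scn7a and Scn8a. The stretch around the transcription start is shown for those of them that the RefSeq promoter table of GRCm38.p6 holds, each from 250 bases before to 50 bases after an annotated start, read 5′ to 3′ on the strand of the gene. Cacna1g has no entry there. Capitals mark the letters of a GC box, GGGCGG on either strand, or of a half-site of the glucocorticoid receptor, AGAACA on either strand.
Cacna1b, chr2:24763103-24763402, minus strand: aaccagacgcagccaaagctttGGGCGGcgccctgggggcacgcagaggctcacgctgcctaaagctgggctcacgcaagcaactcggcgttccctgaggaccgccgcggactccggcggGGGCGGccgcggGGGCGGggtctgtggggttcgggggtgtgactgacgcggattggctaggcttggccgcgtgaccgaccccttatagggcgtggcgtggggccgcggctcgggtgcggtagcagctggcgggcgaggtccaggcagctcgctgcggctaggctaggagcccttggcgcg
Cacna1i, chr15:80286988-80287287, plus strand: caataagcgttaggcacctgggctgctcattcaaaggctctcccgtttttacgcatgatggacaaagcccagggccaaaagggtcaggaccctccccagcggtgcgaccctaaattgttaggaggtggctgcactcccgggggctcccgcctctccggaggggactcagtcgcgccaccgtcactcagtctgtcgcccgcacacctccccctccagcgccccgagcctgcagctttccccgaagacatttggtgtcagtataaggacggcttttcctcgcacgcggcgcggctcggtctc
Scn7a, chr2:66784861-66785160, minus strand: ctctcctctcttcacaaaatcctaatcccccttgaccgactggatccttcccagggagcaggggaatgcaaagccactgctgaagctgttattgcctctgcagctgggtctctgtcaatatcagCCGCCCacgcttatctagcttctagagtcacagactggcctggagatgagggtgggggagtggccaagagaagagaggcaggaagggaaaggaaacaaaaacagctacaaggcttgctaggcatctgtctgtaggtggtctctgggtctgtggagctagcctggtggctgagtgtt
Scn8a, outer start, chr15:100870395-100870694, plus strand: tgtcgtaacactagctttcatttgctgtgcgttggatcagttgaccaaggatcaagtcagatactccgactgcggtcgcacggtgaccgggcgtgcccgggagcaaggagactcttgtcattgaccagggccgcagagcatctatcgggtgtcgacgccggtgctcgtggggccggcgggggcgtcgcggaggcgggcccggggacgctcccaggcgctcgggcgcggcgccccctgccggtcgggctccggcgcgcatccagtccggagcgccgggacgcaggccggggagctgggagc
Scn8a, inner start, chr15:100936021-100936320, plus strand: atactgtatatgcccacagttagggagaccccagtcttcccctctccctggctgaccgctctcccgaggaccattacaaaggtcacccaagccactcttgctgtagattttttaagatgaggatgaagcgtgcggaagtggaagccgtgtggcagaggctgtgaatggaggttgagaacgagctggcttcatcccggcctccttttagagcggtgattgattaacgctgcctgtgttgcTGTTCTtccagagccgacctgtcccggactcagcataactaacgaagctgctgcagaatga
Across the channel genes, 24 of 31 matched the table, with 33 windows. A GC box stood in 14 of the 33 windows (42.4%) and in 35.7% of all 32851 windows. In the windows shown it occurred 3 times for Cacna1b, 1 time for Scn7a and 0 times for Cacna1i and Scn8a. The glucocorticoid half-site stood in 7 of the 33 windows (21.2%, and 19.0% of all windows), among them the inner Scn8a window and windows of Scn2a, Scn4b, Scn9a, Cacna1c, Cacna1d and Cacnb2. A TATA box (TATAAA) stood in 2 windows (6.06%, and 13.6% of all), one of Scn2a and one of Cacna1d. The cyclic AMP response element TGACGTCA (1.79% of all windows), the E-box CACGTG (7.15%) and TTCAGCACC, the left part of the element bound by the neuronal repressor REST (0.371%), occurred in 0 of the 33. Both strands were searched, and none of the 6 motifs contains another. The windows of channel genes had a median GC content of 59.3%, against 52.7% for all windows, and ranged from 33.0% to 87.3%.

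Scn8a encodes the sodium channel that is concentrated at the axon initial segment and nodes and sets firing threshold. Its values (log2 RMA, as for all values per array below) were 10.26 (Control 1) and 10.30 (Control 2) beside 10.13 (R-SDS 1) and 10.20 (R-SDS 2). Both R-SDS mice lay below both controls, by a difference in means of -0.12 (SE 0.13, 95% interval -0.43 to 0.19). Cacna1g, a T-type channel gene known for burst firing, measured 7.64 and 7.71 in Control 1 and 2 against 7.54 in both R-SDS arrays. Its difference was -0.14 (SE 0.13, 95% interval -0.45 to 0.17), the largest among the T-type genes.

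Cacna1i, a further T-type gene, read 8.15 (Control 1) and 7.98 (Control 2) beside 7.96 (R-SDS 1) and 7.92 (R-SDS 2). Control 1 stood apart, and the gap between the nearest arrays of the groups was small beside the spread within Control (difference -0.12, SE 0.14). Without Control 1, the difference of Cacna1i was -0.04. Scn7a, the atypical sodium channel gene known for sensing sodium concentration, gave Control values of 5.65 and 5.74 and R-SDS values of 5.53 and 5.52. In the fit without the block it had the smallest unadjusted limma p of the 31 genes (0.242), with a difference of -0.17 (SE 0.13, 95% interval -0.48 to 0.15). Its values lay below the median of the tested transcript clusters, which was 6.53 to 6.58 in the 4 arrays. Cacna1b, the pore of the presynaptic N-type channel, read 9.091 (Control 1) and 9.143 (Control 2) beside 9.017 (R-SDS 1) and 9.089 (R-SDS 2). R-SDS 2 and Control 1 were almost equal, and after a further quantile normalisation the groups of Cacna1b overlapped. That normalisation left 4 of these 5 genes without overlap, added Cacna2d3 on the lower side, and placed Cacnb2 and Hcn4 above the controls.

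**Figure D2:**
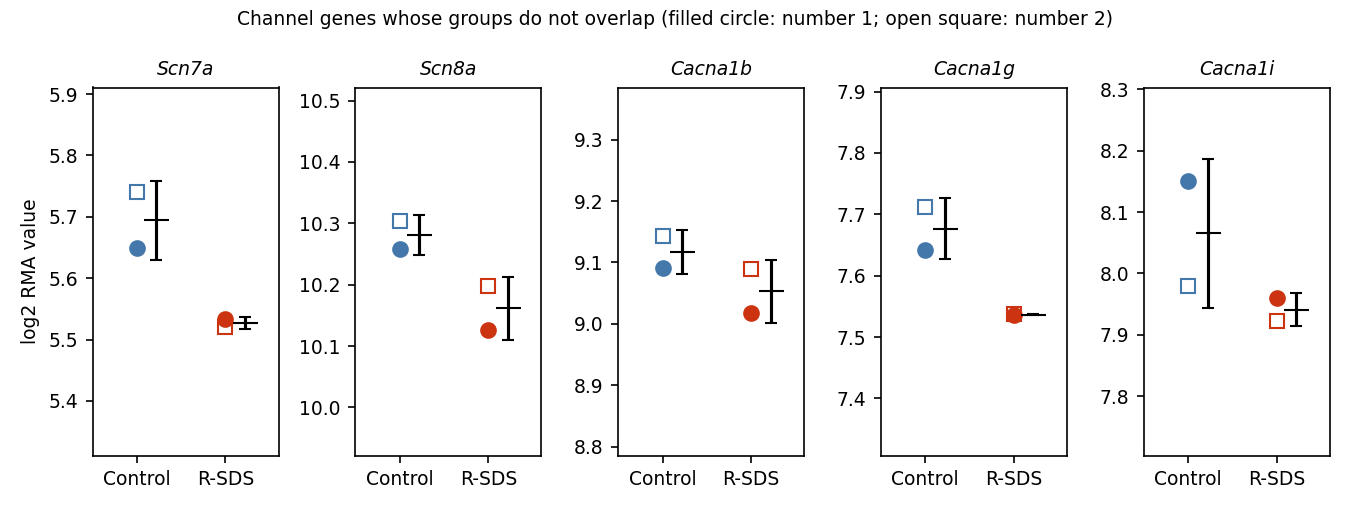
The 5 channel genes whose groups did not overlap, 1 per panel, with log2 RMA values on vertical axes of equal span, filled circles for number 1, open squares for number 2, and group means and SD bars (n = 2) alongside. Both R-SDS points lie below both Control points in each panel, and for Cacna1b and Cacna1i the nearest points almost touch.

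Among the 8 pore-forming sodium channel genes, 7 were lower and 1 higher on average after R-SDS. Their median difference was -0.10, and 3 of them were lower within both numbers. Scn1a, the channel gene of fast-spiking interneurons whose loss causes Dravet syndrome, read 9.08 (Control 1), 9.01 (Control 2), 8.72 (R-SDS 1) and 9.03 (R-SDS 2). Only R-SDS 1 lay below the others, and the difference of -0.17 (SE 0.16) was -0.01 without that array. Scn2a, the gene of the main channel of excitatory axons early in life, showed the same array as lowest, with 11.09 and 11.15 in the controls, 10.90 for R-SDS 1 and 11.17 for R-SDS 2. Without R-SDS 1 the sign of its difference turned from -0.09 to 0.05.

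Scn3a, more abundant before birth, stood at 8.05 and 8.25 in unstressed mice and at 7.89 and 8.36 in stressed mice. The R-SDS values lay on both sides of the controls (difference -0.02, and 0.22 without R-SDS 1). Scn9a, known from sensory and hypothalamic neurons, differed most between the mice of a group, at 5.60 and 6.46 in Control and 5.43 and 6.18 in R-SDS mice. Its difference of -0.23 (SE 0.35) was the largest of the pore-forming sodium channel genes and had the widest interval, -1.09 to 0.63. The sign turned without R-SDS 1 (0.15) and without Control 2 (0.20). A dimmer transcript cluster of Scn9a gave -0.53 within number 1 and 0.02 within number 2. Scn10a and Scn11a, channel genes of pain-sensing neurons, had means over the arrays under the lower quartile of all those tested. Scn10a ranged over the arrays from 4.64 (Control 1) to 5.004 (Control 2) and Scn11a from 3.82 to 4.44 in the same mice, so that for both genes the R-SDS values lay between the controls. Their differences were 0.10 (-0.09 without Control 1) and -0.05 (0.26 without Control 2).

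Scn2a was covered by 14 transcript clusters with that symbol alone, whose means ran from 8.33 to 11.08. All 14 were lower in R-SDS 1 than in Control 1, with differences from -0.32 to -0.03 and a median of -0.12. In R-SDS 2 against Control 2, 13 of the 14 were higher and 1 was lower, with a median difference of 0.16 and a range from -0.13 to 0.38. The group difference was lower for 7 and higher for 7, with a median of 0.0067, and the groups overlapped for all 14. The array with the lowest value was Control 2 for 9 of them and R-SDS 1 for 5. The transcript clusters of a gene come from the same 4 samples and are not replicates. A further 3 transcript clusters carry several sodium channel symbols (Scn2a, Scn3a and Scn9a, then Scn3a and Scn9a, then Scn1a and Scn3a), whose reading cannot be assigned to 1 gene. They too were lower within number 1 (-0.45, -0.16 and -0.20) and higher within number 2 (0.41, 0.09 and 0.04).

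**Figure D3:**
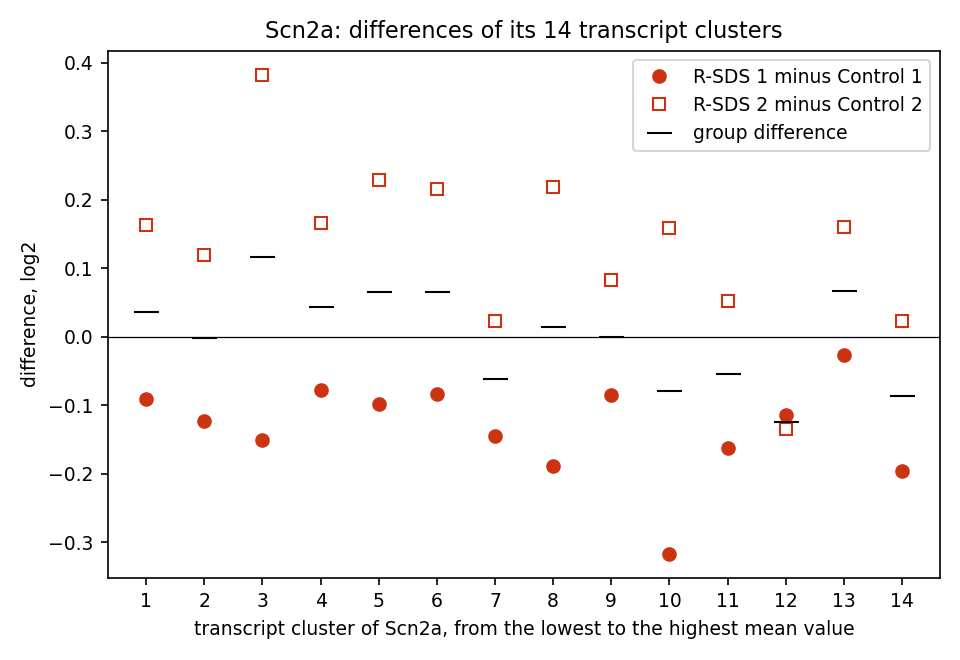
Differences (vertical axis, log2) of the 14 transcript clusters of Scn2a, ordered from the lowest to the highest mean value, within number 1 (filled circles), within number 2 (open squares) and between the groups (dashes). All filled circles lie below 0 and 13 of 14 open squares above it.

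The auxiliary beta subunits of sodium channels adjust gating and act as adhesion molecules. Scn4b, whose product enables resurgent current, was lowest in R-SDS 2, with 6.69 and 6.32 in the controls and 6.57 and 6.02 in stressed mice. Its difference of -0.21 (SE 0.23, 95% interval -0.77 to 0.35) turned to 0.07 without R-SDS 2. Scn3b read 10.36 and 10.23 in the controls and 10.43 and 10.32 after R-SDS, higher within both numbers by 0.07 and 0.08 but with overlapping groups. Scn2b, with 10.09 and 9.86 in the controls and 10.04 and 9.91 after R-SDS, differed by 0.0043, with a 95% interval from -0.35 to 0.36, and the sign turned without Control 2 (-0.11) and without R-SDS 1 (-0.06).

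Among the 10 pore-forming calcium channel genes, 8 were lower and 2 higher on average after R-SDS. Their median difference was -0.08, and 7 of them were lower within both numbers. All 3 genes of the P/Q-, N- and R-type channels were lower within both numbers by similar amounts. Cacna1a, the P/Q-type channel gene that dominates fast transmitter release, gave Control values of 9.21 and 9.32 and R-SDS values of 9.12 and 9.23, a difference of -0.09 within each number. Control 1 lay below R-SDS 2, so the groups overlapped (difference -0.09, SE 0.13, 95% interval -0.42 to 0.24). Cacna1e, the R-type channel gene, stood at 9.76 and 10.14 in unstressed mice and at 9.68 and 10.05 in stressed mice. The spread between the numbers was several times the difference within them (-0.08 and -0.09). In the fit without pairing, the sign of Cacna1e turned without Control 2 (0.10) and without R-SDS 1 (0.10). Cacna1b differed by -0.07 and -0.05 within the 2 numbers.

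The L-type genes couple depolarisation to gene expression and slow afterhyperpolarisation. Cacna1c, the main brain L-type gene, read 8.65 and 8.84 in the controls and 8.54 and 8.82 after R-SDS. The groups overlapped, and the difference of -0.07 (SE 0.16) was 0.07 without R-SDS 1 and 0.03 without Control 2. Cacna1d, whose channel opens at more negative voltages, gave Control values of 7.25 and 7.50 and R-SDS values of 7.07 and 7.47. R-SDS 1 was the lowest array for both genes, and the difference of Cacna1d (-0.10, SE 0.19) became 0.10 without it and 0.02 without Control 2. Cacna1f of the retina and Cacna1s of skeletal muscle were dim in hippocampus, between 4.49 and 4.71 and between 4.95 and 5.16 over the arrays, with differences of 0.04 and 0.0050. The third T-type gene, Cacna1h, stood at 8.07 and 8.11 in unstressed mice and at 8.12 and 8.00 in stressed mice, so that R-SDS 1 was the highest array and R-SDS 2 the lowest. Its difference was -0.03, and 0.03 without R-SDS 2.

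**Figure D4:**
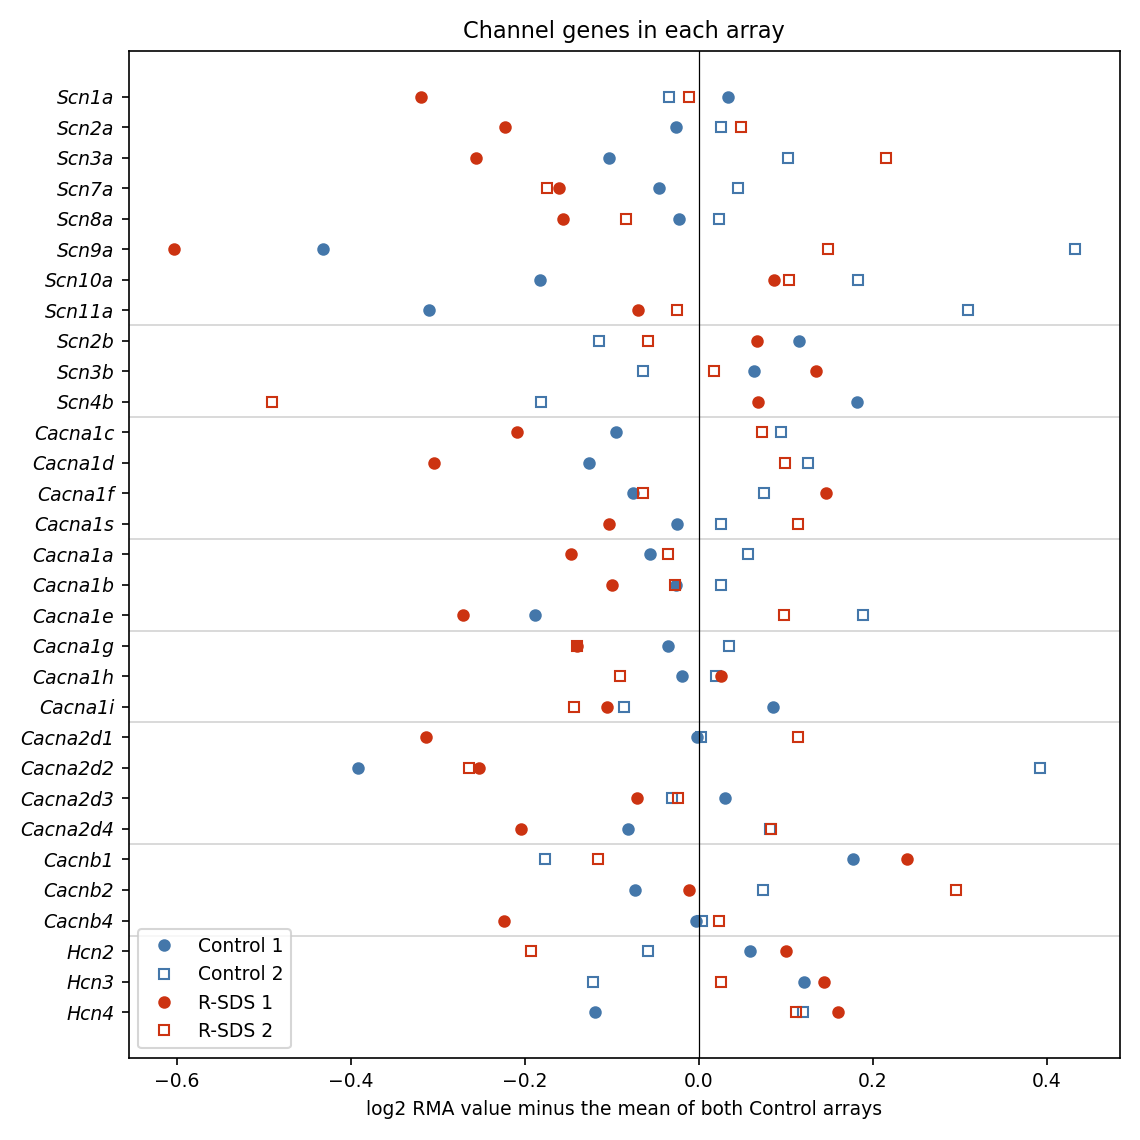
Log2 RMA value of the 31 channel genes (rows, grouped by role) in each array, minus the mean of both Control arrays (horizontal axis), with blue for Control, red for R-SDS, filled circles for number 1 and open squares for number 2. R-SDS 1 is the leftmost point for 16 genes, and Scn9a and Cacna2d2 show the widest spread between the Control arrays.

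All 4 genes of alpha2delta subunits, which carry calcium channels to the membrane and include the targets of gabapentinoid drugs, had a lower mean in R-SDS mice, but 0 of the 4 were lower within both numbers. Cacna2d2 showed the largest difference of all channel genes (-0.26, SE 0.26, 95% interval -0.89 to 0.37). It read 8.10 (Control 1), 8.89 (Control 2), 8.24 (R-SDS 1) and 8.23 (R-SDS 2). Control 2 alone was high, and without it the sign turned (0.13). Of the marker genes of GABAergic interneurons, where Cacna2d2 is known to be expressed, all 8 listed were measured, and their summed unlogged value was 6941 in Control 2 and 6507 to 6534 in the other 3 arrays. The list went both ways there, with Control 2 the highest array for 3 markers (Gad2, Slc32a1 and Sst, the brightest) and the lowest for 3 (Npy, Pvalb and Vip). Markers of regions beside the hippocampus went both ways. Control 2 had the highest sums for thalamus and habenula, 1826 (1414 to 1530.2 in the other arrays), and for striatum, 1197 (1006 to 1056). For thalamus and habenula, however, it was the highest array for 2 of 8 markers and the lowest for 3. Zic1 stood apart in that list, at 9.52 in Control 2 and 8.18 to 8.75 in the other arrays. For neocortex and subiculum the sum of Control 2 was the lowest, 2520 (2728 to 3359 in the other arrays), with 5 of 8 markers lowest there. The part of any of these in the Cacna2d2 value was not tested.

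Cacna2d1 measured 10.17 in both Control arrays, 9.86 for R-SDS 1 and 10.29 for R-SDS 2, and the R-SDS mice lay on both sides of the controls. Its difference of -0.10 was 0.11 without R-SDS 1. The other transcript cluster of Cacna2d1 showed the same order within the numbers (-0.21 and 0.07). Cacna2d3 varied least of the 4, from 9.38 (R-SDS 1) to 9.48 (Control 1). Cacna2d3 differed by -0.05 (SE 0.13) and Cacna2d4 by -0.06 (SE 0.16), and Cacna2d4 had 0.08 without R-SDS 1 and 0.02 without Control 2.

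The cytoplasmic beta subunits of calcium channels raise surface expression and shift gating. Cacnb2 was higher within both numbers, with 4.76 and 4.91 in Control against 4.82 and 5.13 in R-SDS mice, all near the lower quartile of the tested transcript clusters (4.88 to 5.08 in the 4 arrays). Its difference of 0.14 (SE 0.16) was the largest higher value of the channel genes, and was -0.01 without R-SDS 2. Cacnb1 was higher by 0.06 within each number but differed more between the numbers, with 9.23 and 8.87 in Control and 9.29 and 8.93 in R-SDS mice. The sign of Cacnb1 turned without Control 2 (-0.12) and without R-SDS 1 (-0.12). Cacnb4, the gene mutated in the lethargic mouse, measured 9.65 and 9.66 in the controls, 9.43 for R-SDS 1 and 9.68 for R-SDS 2. Only R-SDS 1 departed from the rest, and without it the difference of Cacnb4 was 0.02 in place of -0.10.

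Of the 3 measured HCN genes, 2 had a higher and 1 a lower mean in R-SDS mice. Hcn2, found in many neurons across the brain, read 9.66 and 9.54 in the controls and 9.70 and 9.41 after R-SDS. The R-SDS values lay on both sides of the controls, with a difference of -0.05 (SE 0.16, 95% interval -0.43 to 0.33) that was 0.10 without R-SDS 2 and 0.01 without Control 1. Hcn4, the cardiac pacemaker and thalamic HCN gene, gave Control values of 5.54 and 5.78 and R-SDS values of 5.82 and 5.77. Control 1 was the low array, and the difference of 0.14 (SE 0.14) was 0.28 within number 1 and -0.0073 within number 2. Hcn3 stood at 6.54 and 6.30 in unstressed mice and at 6.56 and 6.45 in stressed mice, a difference of 0.08 (SE 0.15), and -0.04 without Control 2.

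R-SDS 1 had the lowest of the 4 values for 16 of the 31 channel genes (51.6%), and for 27.1% of all transcript clusters. These included Scn1a, Scn2a, Scn3a, Scn8a, Cacna1a, Cacna1b, Cacna1c, Cacna2d1 and Cacnb4. This array also held the most signal of the choroid plexus, the tissue in the ventricles that makes cerebrospinal fluid. Of 12 listed choroid plexus markers 11 were measured, and their summed unlogged value came to 13902 (R-SDS 1) and 919.9 (R-SDS 2), and to 3330.5 (Control 1) and 634 (Control 2). The 8 general neuron markers summed to 26095 in R-SDS 1, 25479 in R-SDS 2, and 25122 to 26024 in Control. The part of either in the channel values of R-SDS 1 was not tested.

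**Figure D5:**
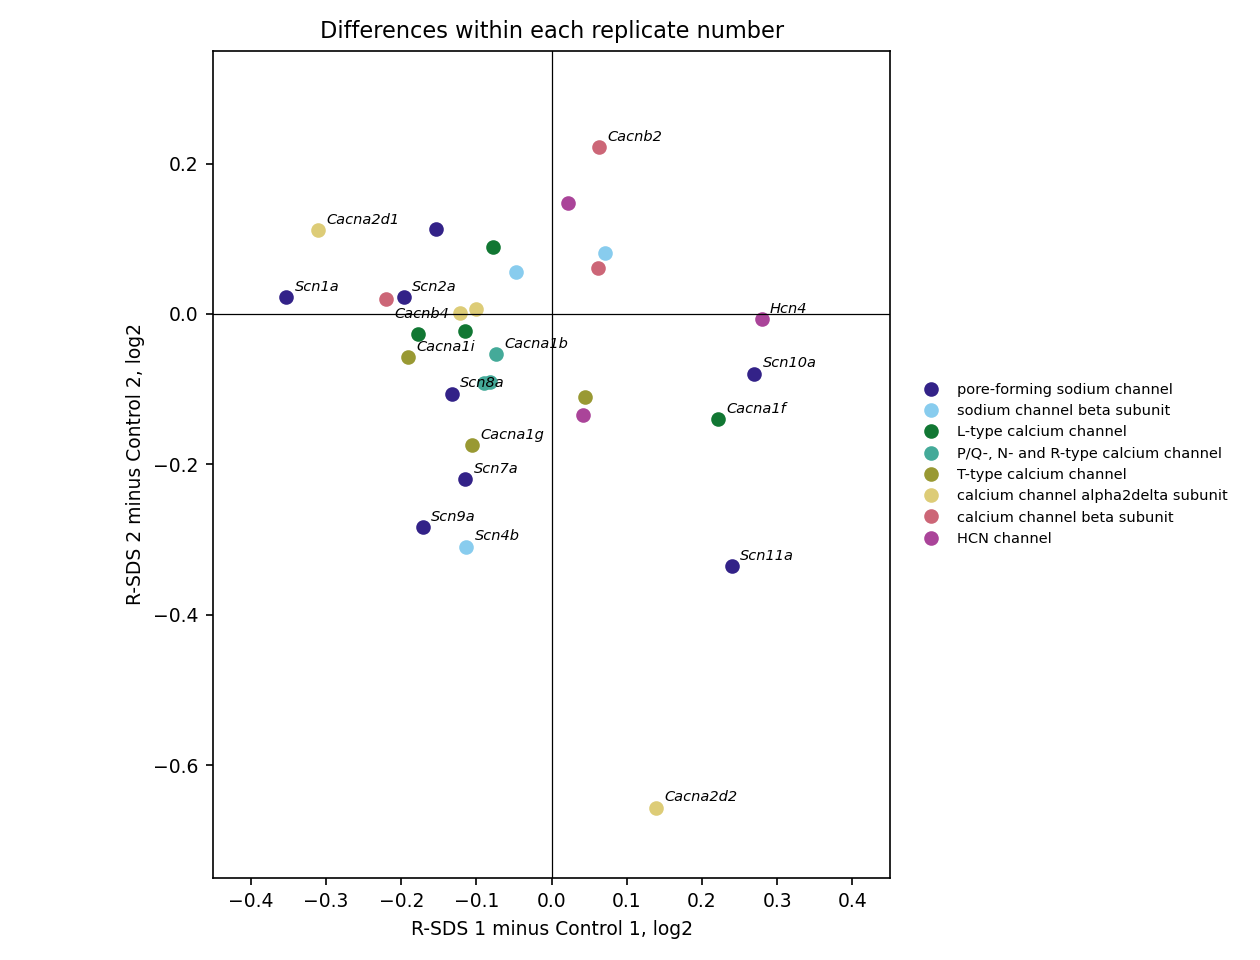
Difference of each channel gene within number 1 (horizontal axis, log2) and within number 2 (vertical axis, log2), coloured by role. The lower left part, where R-SDS is lower within each number, holds 11 genes, the upper right 4, and 16 genes lie in the other parts, where the signs are opposite.

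Most channel genes differed more between replicate numbers than between Control and R-SDS mice. The shift from number 1 to number 2, averaged over both groups, exceeded the stress difference for 22 of the 31 genes (71.0%, and 72.2% of all transcript clusters). It had the same sign in Control and R-SDS for 24 genes (77.4%, and 71.4% of all). The shift was 0.81 for Scn9a, 0.37 for Cacna1e, 0.34 for Scn3a and 0.33 for Cacna1d, all higher in number 2, and -0.46 for Scn4b and -0.36 for Cacnb1, higher in number 1. The labels do not say what the number stands for. The interquartile range of all rows also followed the number, at 3.34 and 3.37 in number 1 and 3.06 and 3.11 in number 2.

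The genes of proteins that assemble with, anchor or tune these channels were split evenly between higher and lower means. Of 40 listed partner genes, 36 were measured, 18 higher and 18 lower on average after R-SDS, with a median difference of -0.0012. By limma, 0 passed the adjusted p and 0 an unadjusted p under 0.05, where 1.01% of all transcript clusters did the latter. The groups did not overlap for 1 higher and 1 lower gene, where 9.41% and 9.06% of all transcript clusters were without overlap. The higher one was Kcne2, an accessory subunit of HCN and potassium channels that choroid plexus epithelium also expresses. Kcne2 read 5.39 (Control 1), 5.51 (Control 2), 7.32 (R-SDS 1) and 5.51 (R-SDS 2). The value of R-SDS 1 stood 1.94 above Control 1, in the array with the highest choroid plexus sum, while R-SDS 2 stood 0.0053 above Control 2. The part of choroid plexus in the Kcne2 value was not tested. The lower one was Nalcn, the sodium leak channel gene, with a difference of -0.07.

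Among the other partners, the largest differences of each group were small. Unc80, which links the leak channel to its regulators, differed by -0.14, and Ank3, encoding the ankyrin that holds sodium channels at the axon initial segment, by -0.07. Fgf11, a member of the fibroblast growth factor homologous factors that bind sodium channel tails, differed by 0.20. The AMPA receptor and calcium channel gamma subunit gene Cacng3 differed by 0.07, the RGK GTPase gene Rem2, whose product restrains calcium channels, by 0.09, and Stac3, an adaptor of the muscle L-type channel, by -0.12.

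Markers of hippocampal neurons were bright in these arrays. All 8 neuron markers, 7 of 8 dentate granule markers, 6 of 6 measured CA1 markers and 6 of 8 CA3 and CA2 markers lay above the median brightness of the tested transcript clusters. All 8 dentate granule markers were higher on average after R-SDS (median difference 0.25), against 5 of 6 CA1 markers (0.10) and 4 of 8 CA3 and CA2 markers (0.02). The summed unlogged value of the dentate markers was 2603 to 2850.1 in Control and 3022 to 3033 in R-SDS mice, and its part in the channel values was not tested. Of the oligodendrocyte precursor markers, cells that also carry sodium channels, all 6 had a lower mean (median -0.06), with sums of 1465 to 1772 in Control and 1415 to 1613 in R-SDS mice. The markers of thalamus and habenula, which express T-type channels, had a median difference of 0.00052 with 4 of 8 higher, and those of striatum -0.07 with 3 of 6 higher. Markers of other cells than neurons went both ways after R-SDS. Higher means were found for 7 of 8 astrocyte markers (median 0.13) and 5 of 7 endothelium markers (0.16). The same held for 7 of 8 pericyte and smooth muscle markers (0.17) and 4 of 6 microglia markers (0.03). Of the oligodendrocyte markers, 6 of 9 had a lower mean (median -0.07), as had the precursor markers above. The part of any of these cells in the lower channel values was not tested.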

How the data were processed

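Total RNA of 4 dissected hippocampi was hybridised to Affymetrix whole-transcript mouse gene arrays. Groups and replicate numbers came from the sample titles. The methods name 2 mice for the R-SDS arrays, and each Control array was taken as 1 mouse. The deposited values are log2 values made by the authors, who per the labels ran RMA (robust multi-array average) in Expression Console. This step subtracts background, normalises the arrays together and summarises probes, which can compress differences of dim genes. The values carry no detection call, and precision is limited by how few arrays there are. The build behind the annotation was not given in the sources used here.

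Of 35556 rows, 21789 had 1 gene symbol, 1621 several and 12146 were not listed in the platform annotation. Entrez identifiers matched RefSeq symbols for 99.6%, with 0 symbols changed. R-SDS and Control were compared in limma 3.58.1 (lmFit, eBayes; R 4.3.3) over all 21789 rows, two-sided, with Benjamini-Hochberg adjustment, no filter and no block (2 residual and 4.07 prior degrees of freedom). Intervals are limma's moderated 95% intervals. No test was run on the channel genes as a list. The procedure was tested on simulated data, with added log2 changes larger than any difference of the channel genes. Changes as small as those differences were not simulated. Alternatives were a replicate block, a trended prior, the methods' t-test, quantile normalisation, a mean log2 of at least 6, the mean of all rows of a gene, and leaving out each array. All channel genes were named. Values per array were given where the groups did not overlap, for the largest difference of a role, for well known hippocampal channel genes, and for further members chosen after their values were seen. Of partner genes, the largest of each group was named, and Nalcn after its values were seen. The channel genes and lists were chosen with earlier results of these data known. Plots were drawn with matplotlib 3.10.9.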

Additional observations from a re-analysis of the deposited data

How the results depend on the processing

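Quantile normalisation turned the sign of 0 of the 31 channel genes, and the mean of all rows that of 0 of the 3 genes it can move. The replicate block and the brightness filter (23 genes left) leave a difference as it is, and 0 channel genes passed the adjusted p in any alternative. The replicate numbers are shared by 2 pairs only, whose deviations from the group means correlated at 0.517 across transcript clusters, and the labels give them no meaning. With the replicate block, the standard errors of the channel genes were 0.09 to 0.21, in place of 0.13 to 0.35 without it. With it, 0 channel genes had an unadjusted limma p under 0.05 (4.81% of all transcript clusters). Their smallest unadjusted limma p was 0.059, for Scn9a, and their smallest adjusted limma p was 0.960. Over all transcript clusters, 54 were past the thresholds of the study on the higher side with the block, in place of 32. The brightness filter gave 9 higher and 2 lower past those thresholds and the methods' t-test 6 and 13, in place of 32 and 42. Without single arrays these counts were 74 to 416 higher and 67 to 323 lower, and the counts past the adjusted p were 0 to 46 higher and 0 to 3 lower, in place of 0 and 0. The median difference of the channel genes was -0.11 to -0.011 without single arrays, the last without R-SDS 1. Quantile normalisation gave 2 channel genes higher without overlap (12.3% of all transcript clusters). Leaving out single arrays gave 4 to 7 higher (27.3% to 34.0% of all) and 8 to 18 lower (25.1% to 30.7%), where 1 group then holds a single array, assumed to vary like the other group. The cause of the changes was not tested. The sign held without each array for 10 channel genes (Cacna1a, Cacna1b, Cacna1g, Cacna1i, Cacna2d3, Hcn4, Scn1a, Scn3b, Scn7a and Scn8a). Among these, Cacna1b, Cacna1g, Cacna1i, Scn7a and Scn8a had groups without overlap, so that leaving out 1 array could not turn their sign. It turned for the other 21 channel genes. Their lowest to highest differences without single arrays were those of Cacna1c (-0.21 to 0.072), Cacna1d (-0.30 to 0.099), Cacna1e (-0.27 to 0.10), Cacna1f (-0.064 to 0.15), Cacna1h (-0.091 to 0.026), Cacna1s (-0.10 to 0.11), Cacna2d1 (-0.31 to 0.11), Cacna2d2 (-0.65 to 0.13), Cacna2d4 (-0.20 to 0.083), Cacnb1 (-0.12 to 0.24) and Cacnb2 (-0.011 to 0.30), and of Cacnb4 (-0.22 to 0.024), Hcn2 (-0.19 to 0.10), Hcn3 (-0.036 to 0.21), Scn10a (-0.088 to 0.28), Scn11a (-0.36 to 0.26), Scn2a (-0.22 to 0.048), Scn2b (-0.11 to 0.12), Scn3a (-0.26 to 0.22), Scn4b (-0.49 to 0.068) and Scn9a (-0.66 to 0.20). The values carry no detection call, so that it is not known which of the dim genes, such as Scn11a, Cacna1f, Scn10a and Cacnb2, lay above background.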
